A study of Mus musculus with 3 samples.

Results

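The transcripts described here are those of 4 mouse genes, the orphan nuclear receptor genes Nr4a1 and Nr4a3, the Egr co-repressor gene Nab2 and the AP-1 gene Fos. They were chosen by their measured ratios on these same arrays, where all were high in CD69hi RNA, out of 6795 genes that the probes name by 1 symbol. Their own ratios are therefore given as a description and without a test. Each of the 4 was measured by 1 probe. The study compared thymocytes on 3 printed 2-colour arrays. One RNA on each array came from purified CD69hi thymocytes of wild-type B6 mice, and the other from Zap70-/- thymocytes that were not separated, which the titles call CD69lo. Age, sex, pooling and the strain background of the Zap70-/- mice were not found in the labels, and no label ties each array to mice of its own. The p-values therefore speak for variation from array to array, and that variation may be purely technical. On arrays 1 and 2 Cy3 labelled the CD69hi RNA, and on array 3 the dyes were swapped.

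CD69 appears on thymocytes whose T cell receptor (TCR) has been engaged, and the kinase ZAP-70 carries the signal from the engaged receptor. Through Ras, MAP kinases and serum response factor, and through calcium, calcineurin, NFAT and MEF2, such signals switch on immediate-early genes without new protein synthesis. Fos is a classic gene of this kind, whose protein pairs with Jun proteins as AP-1. The NR4A proteins are nuclear receptors that act without a known hormone and whose activity follows their amount, and in thymocytes Nr4a1 (Nur77) and Nr4a3 (Nor-1) are known for the deletion of cells with strongly self-reactive receptors. Nab2 binds Egr factors, dampens their activity and is itself induced by them. The question put is how RNA of thymocytes after TCR signalling differs from RNA of thymocytes in which that signal is cut. Genotype, purification and the mix of cell stages differ between the RNAs as well and cannot be told apart from the signal.

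The promoters of the 4 genes are shown because the genes belong to a class of rapidly induced genes controlled near the start site. Each sequence is the 250 bases before a RefSeq start site on build GRCm38.p6, written 5′ to 3′ along the gene's strand. Nr4a1 lies on the + strand of chromosome 15 (101253902 to 101274795), and the window printed is chr15:101266596-101266845, inside the annotated span of the gene. For Nr4a3, on the + strand of chromosome 4 (48045078 to 48086447), the window is chr4:48045055-48045304, most of it inside the annotated span as well. Nab2 lies on the - strand of chromosome 10 (127660918 to 127666703), with the window chr10:127666704-127666953. Fos, on the + strand of chromosome 12 (85473890 to 85477274), has the window chr12:85473640-85473889. Capitals mark motif matches on either strand, named after the sequences.
Nr4a1: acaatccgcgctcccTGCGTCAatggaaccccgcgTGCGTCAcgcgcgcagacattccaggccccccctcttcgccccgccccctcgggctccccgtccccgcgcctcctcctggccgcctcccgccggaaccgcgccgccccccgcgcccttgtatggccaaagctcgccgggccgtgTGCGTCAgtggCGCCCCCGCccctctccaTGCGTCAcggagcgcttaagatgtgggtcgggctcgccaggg
Nr4a3: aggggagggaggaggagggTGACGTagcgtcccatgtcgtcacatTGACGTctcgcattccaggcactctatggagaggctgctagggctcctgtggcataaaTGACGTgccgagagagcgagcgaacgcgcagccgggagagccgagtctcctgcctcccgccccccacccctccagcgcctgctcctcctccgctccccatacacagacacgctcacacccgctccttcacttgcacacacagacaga
Nab2: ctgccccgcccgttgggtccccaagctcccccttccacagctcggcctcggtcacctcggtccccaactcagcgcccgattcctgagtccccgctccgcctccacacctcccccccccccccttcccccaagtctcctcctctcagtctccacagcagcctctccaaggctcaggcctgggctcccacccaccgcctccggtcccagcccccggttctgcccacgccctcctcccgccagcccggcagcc
Fos: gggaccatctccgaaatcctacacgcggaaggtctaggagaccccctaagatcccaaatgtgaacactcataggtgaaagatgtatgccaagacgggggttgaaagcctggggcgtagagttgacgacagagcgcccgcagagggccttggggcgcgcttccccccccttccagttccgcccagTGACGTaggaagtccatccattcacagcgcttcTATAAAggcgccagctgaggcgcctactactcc

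The CRE core TGACGT, to which CREB and ATF factors bind, stood 3 times in the Nr4a3 window, at 231, 205 and 147 bases before the start, and once in that of Fos, at 66 bases. Distances are counted from the start site that ends each window. The Nr4a3 matches at 205 and 147 bases lie inside the annotated span of the gene, as does the whole Nr4a1 window. Of 32817 mouse promoter windows of the same length, 6.46% held it and 0.152% held it 3 or more times. The Fos window also held TATAAA (the TATA box) at 33 bases before the start, as did 12.4% of windows. The Nr4a1 window held 1 match to the Egr sequence GCGNGGGCG, on the opposite strand at 60 bases (4.70% of windows). A further search was added after the Nr4a1 sequence had been read. The related heptamer TGCGTCA stood 4 times in that window, at 235, 215, 71 and 42 bases, while 1.74% of windows held it and only 1 window held it 3 or more times, which was this one. No match was found in any of the 4 windows for TGANTCA (AP-1), AAAGGTCA (the NBRE of NR4A monomers), the CArG box or the MEF2 box, which stand in 6.75%, 1.34%, 1.47% and 2.92% of windows. Sequence outside the 250 bases was not searched, so sites farther from the start could not be found. The Nab2 window held none of the motifs searched. The windows were rich in G and C, from 58.4% in Fos to 74.4% in Nr4a1, against a median of 52.4%. No overlap between the marked matches occurred.

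All ratios below are log2 ratios of CD69hi over Zap70-/-, obtained by turning arrays 1 and 2 by their labelled dyes. This direction is likely, but no label states it. The basis is a reading of the values as Cy5 over Cy3, together with Rag1, the TCR recombinase gene of immature thymocytes, which then lay at -1.37, -1.42 and -0.77 on the arrays (mean -1.19 ± 0.36, SD, n = 3, limma adjusted p = 0.035). The Rag1 call was lost when array 1 (adjusted p = 0.13) or array 2 (0.18) was left out and when the arrays were scaled to one spread (0.072), and Dntt, the terminal transferase gene, did not pass (-1.05 ± 0.71, adjusted p = 0.12). The titles name CD69hi before CD69lo on arrays 1 and 2 and after it on array 3. Read as a ratio, that order would give the opposite direction. In the opposite reading every sign below turns. The median of all 8905 features was 0.012. At a limma adjusted p of at most 0.05, 368 features (4.13%) were higher in CD69hi RNA and 250 (2.81%) were lower. Leaving out array 1, 2 or 3 gave 169, 95 and 283 higher and 32, 24 and 409 lower, and scaling the arrays gave 285 and 85. Ratios of at least 1 on every array, a 2-fold difference, were reached by 168 features (1.89%). The arrays give ratios and no levels, so no transcript can be called absent, and their number limits the precision. In RNA from mixed cells, more cells of a type and more RNA per cell cannot be told apart.

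Nr4a1 had log2 ratios of 3.79, 3.71 and 3.84 on arrays 1, 2 and 3. The values lay within 0.13 of one another in both dye orientations. The mean was 3.78 ± 0.06 (SD, n = 3), a 13.7-fold ratio with a range of 13.1-fold to 14.3-fold, and ranked 3 of 6795 genes. Nr4a3 had log2 ratios of 3.22, 7.54 and 4.38, so that array 2 stood far above the others. The mean of 5.05 ± 2.24 ranked 1 of 6795 genes and corresponds to 33.0-fold, but the single arrays ran from 9.30-fold to 186-fold. Without array 2 the Nr4a3 mean was 3.80, and without array 1 it was 5.96. Log2 ratios above 4 in size occurred for 43, 26 and 25 features on arrays 1 to 3. No spot intensities were used here, so whether the Nr4a3 spot was dim in the Zap70-/- channel of array 2 was not tested.

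Nab2 had log2 ratios of 2.51, 3.38 and 3.04, with a mean of 2.98 ± 0.44 (SD, n = 3). This is a 7.88-fold ratio with a range of 5.70-fold to 10.4-fold, and ranked 16 of 6795 genes. Fos had log2 ratios of 2.02, 2.47 and 2.04, with array 2 the highest and arrays 1 and 3 nearly equal. Its mean was 2.18 ± 0.25, or 4.52-fold with a range of 4.05-fold to 5.53-fold, at rank 50. All 4 genes reached a log2 ratio of at least 1 on every array, against 1.89% of features, which the choice of the genes fixes. The lowest of the 12 values was 2.02, for Fos on array 1, and the highest 7.54.

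**Figure D1:**
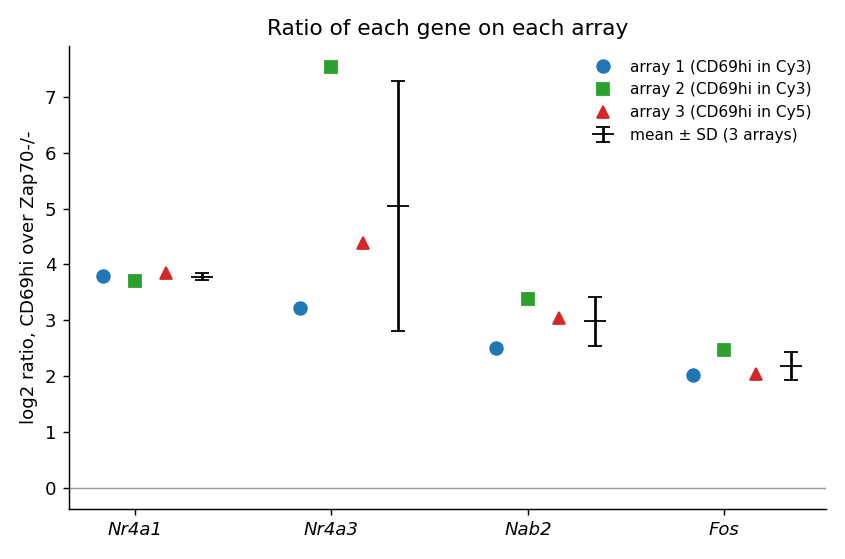
Log2 ratio of CD69hi over Zap70-/- RNA (vertical axis) for Nr4a1, Nr4a3, Nab2 and Fos on each of the 3 arrays (symbols, with the dye of the CD69hi RNA), with mean and SD beside them. The 3 Nr4a1 points lie between 3.71 and 3.84, while those of Nr4a3 spread from 3.22 to 7.54.

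The 4 genes differed widely in how closely their arrays repeated. The SD of Nr4a1 was larger than that of 4.88% of all features, and that of Nr4a3 exceeded 99.1% of them. Among the 168 features above 1 on every array, the SD of Nr4a1 exceeded 4.17%, that of Fos 48.8%, that of Nab2 82.1% and that of Nr4a3 98.8%. By its lowest array, Nr4a1 ranked 2 of 6795 genes, Nr4a3 ranked 5, Nab2 17 and Fos 35. The order Nr4a1, Nab2, Fos from high to low held on all 3 arrays. Nr4a1 exceeded Nab2 by 1.28, 0.33 and 0.80 and Nab2 exceeded Fos by 0.49, 0.91 and 1.00 on arrays 1, 2 and 3. Nr4a3 was above Nab2 and Fos on every array too. The order of Nr4a1 and Nr4a3 was not the same throughout, with differences (Nr4a1 minus Nr4a3) of 0.57, -3.83 and -0.54 on the arrays, so the NR4A genes did not differ from each other beyond their spread. These are orders of ratios and not of transcript levels.

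**Figure D2:**
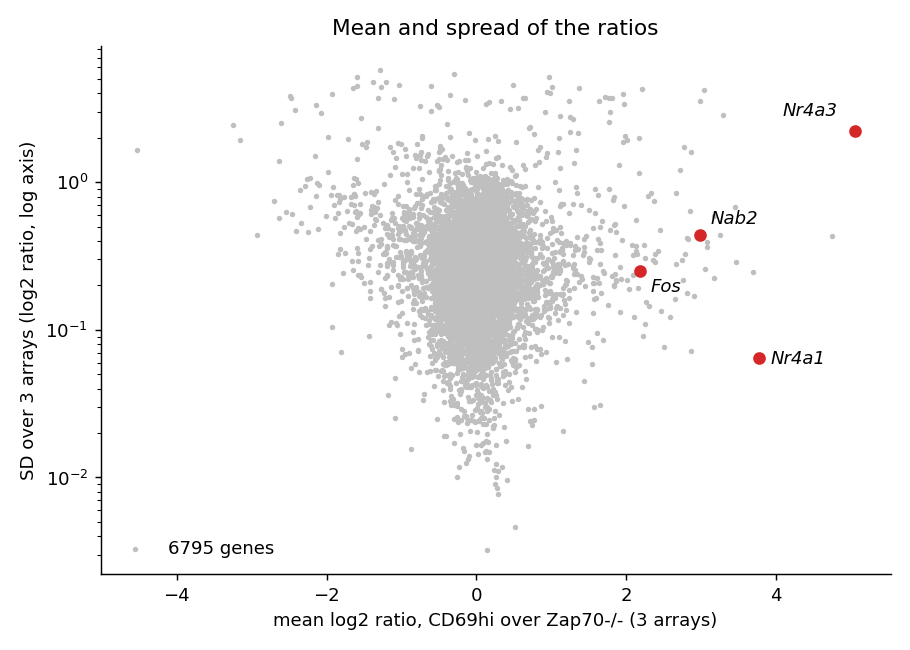
Mean log2 ratio over the 3 arrays (horizontal axis) against its SD (vertical log axis) for 6795 genes in grey, with the 4 genes in red. Nr4a1 combines a mean of 3.78 with an SD of 0.06, and Nr4a3 a mean of 5.05 with an SD of 2.24.

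The dye orientations gave close ratios for Nr4a1, Nab2 and Fos. The value of array 3 minus the mean of arrays 1 and 2 was 0.09 for Nr4a1, 0.10 for Nab2 and -0.20 for Fos, and -1.0 for Nr4a3. In a fit with a dye term its size was 0.04 for Nr4a1, 0.05 for Nab2, 0.10 for Fos and 0.50 for Nr4a3 (median size over all features 0.19), where Nr4a1 had a ratio of 3.79, Nab2 2.99, Fos 2.14 and Nr4a3 4.88. For Nr4a3, arrays 1 and 2 differed by more within 1 orientation (4.32) than the orientations did.

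**Figure D3:**
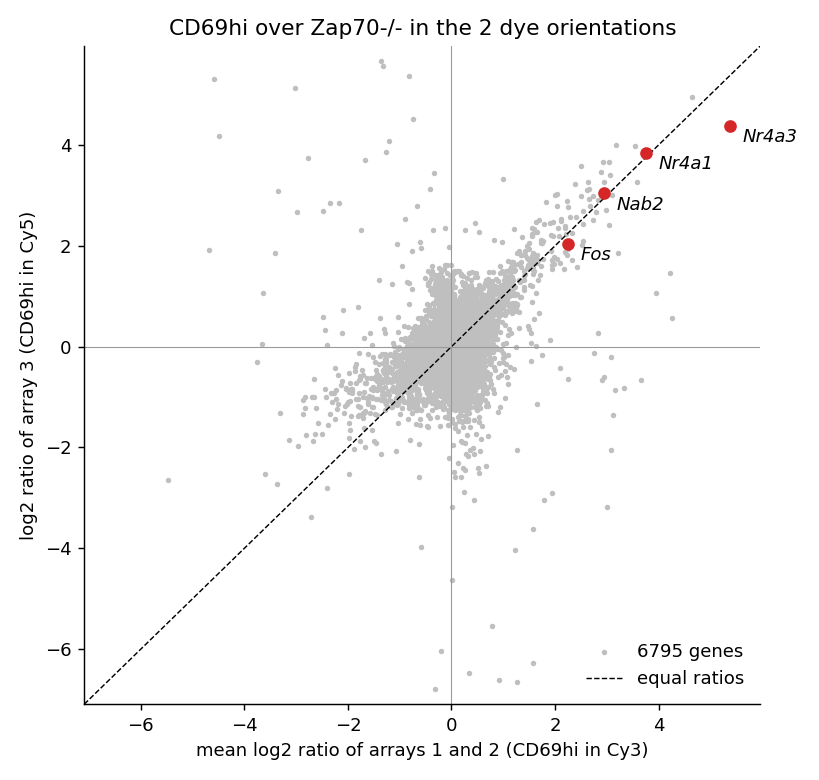
Mean log2 ratio of arrays 1 and 2, with the CD69hi RNA in Cy3 (horizontal axis), against the log2 ratio of array 3, with it in Cy5 (vertical axis), for 6795 genes in grey and the 4 genes in red. The dashed line marks equal ratios, and Nr4a1, Nab2 and Fos lie close to it while Nr4a3 lies below it (4.38 on array 3 against a mean of 5.38).

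The measured relatives of Nr4a1, Nr4a3 and Nab2 were higher in CD69hi RNA as well, by smaller ratios. Of 9 NR4A, Egr and Nab genes listed, 3 beside those described above were measured, and all 3 rose, against 4.13% of features that were higher. Nr4a2 (Nurr1), the remaining NR4A receptor, had log2 ratios of 1.41, 1.41 and 1.18 (mean 1.33 ± 0.13, SD, n = 3, limma adjusted p = 0.015). Nab1, the paralogue of Nab2, had 1.11, 1.36 and 0.86 (1.11 ± 0.25, adjusted p = 0.03). Egr3, a zinc finger factor that acts after the TCR signal and that Nab proteins bind, had 1.31, 2.01 and 1.68 (1.67 ± 0.35, adjusted p = 0.018). Every Nr4a2 value lay below the lowest NR4A value above, 3.22, and every Nab1 value below the lowest of Nab2, 2.51. Because Nr4a1, Nr4a3 and Nab2 were chosen for high ratios on these arrays, the choice itself favours smaller ratios in their relatives. The calls were not kept on every pair of arrays. Leaving out array 1 gave adjusted p-values of 0.070 for Nr4a2, 0.12 for Nab1 and 0.035 for Egr3. Leaving out array 2 gave 0.094 for Nr4a2, 0.19 for Nab1 and 0.065 for Egr3, and leaving out array 3 gave 0.029, 0.036 and 0.0503. Scaling gave 0.05004 for Nab1. Egr1 and Egr2 were not analysed here, and Egr4 was annotated only on a probe shared with Epha4, whose ratio is assigned to neither gene.

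The other measured AP-1 genes missed the threshold no more often than features at large. Of 13 AP-1, Maf and Atf genes beside Fos, 1 rose (7.69%, against 4.13% of features), 1 fell (7.69%, against 2.81%) while 11 missed the threshold, and the median was 0.15 (0.012 over all features). Its measured relatives Fosl1 (-0.06, 0.42 and -0.79, mean -0.14 ± 0.61, SD, n = 3, limma adjusted p = 0.78) and Fosl2 (0.79, 0.44 and 0.41, mean 0.55 ± 0.21, adjusted p = 0.11) did not pass. Neither did the Fos partners Junb (0.56 ± 0.39, adjusted p = 0.18) and Jund (-0.46 ± 0.27, adjusted p = 0.18). All 3 Fos values, 2.02 and above, lay over every value of these 4 genes, which the choice of Fos for its high ratio favours. Fosb, another relative of Fos, and Jun were not analysed here. Batf, an AP-1 factor of lymphocytes, rose (1.26, 1.42 and 1.82, mean 1.5 ± 0.29, adjusted p = 0.019), and leaving out array 2 gave an adjusted p of 0.067. The stress factor gene Atf5 fell (-0.91 ± 0.07, adjusted p = 0.03), a call lost on leaving out array 1 (0.15) or array 2 (0.21) and on scaling (0.061).

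**Figure D4:**
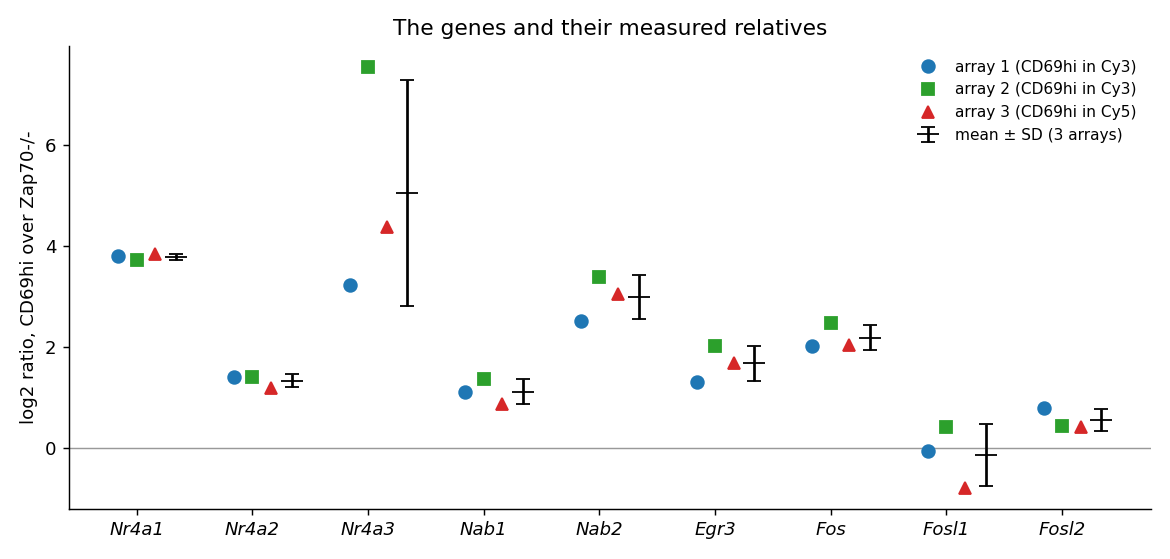
Log2 ratio of CD69hi over Zap70-/- RNA (vertical axis) on each of the 3 arrays (symbols) for the NR4A, Nab, Egr and Fos genes measured, with mean and SD. Nr4a2, Nab1 and Egr3 lie between 0.86 and 2.01, below Nr4a1, Nr4a3 and Nab2, and Fosl1 and Fosl2 lie between -0.79 and 0.79, below Fos. The choice of Nr4a1, Nr4a3, Nab2 and Fos for high ratios favours this order.

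Of 40 measured genes of the wider early response to TCR signals, 13 rose (32.5%, against 4.13% of features), 3 fell (7.5%, against 2.81%) and 24 missed the threshold, at a median of 0.28. The highest was Cd5, a surface inhibitor of TCR signalling, at 4.26, 5.05 and 4.96 (mean 4.75 ± 0.43, SD, n = 3, limma adjusted p = 0.0051). Id2, which blocks E proteins, had a mean of 2.81 ± 0.42 (adjusted p = 0.009). Gadd45b, a gene tied to stress kinase signalling, had 2.14 ± 0.55 and the transcription factor gene Irf4 1.84 ± 0.20 (adjusted p = 0.02 and 0.01). For Gadd45b, leaving out array 1 gave an adjusted p of 0.053. Of 5 measured phosphatases of this list that switch off MAP kinases, a group picked after the values were seen, 3 rose, against 4.13% of features. Dusp2 had 1.66, 1.78 and 2.12 (1.86 ± 0.24, adjusted p = 0.011), Dusp6 1.69 ± 0.25 (adjusted p = 0.013) and Dusp5 1.55 ± 0.23 (adjusted p = 0.014), and leaving out array 2 ended the calls of Dusp6 (0.055) and Dusp5 (0.067). Dusp4 (0.42 ± 0.14, adjusted p = 0.15) and Dusp10 (0.44 ± 0.17, adjusted p = 0.15) missed the threshold. The 3 that fell were Socs3, a brake on cytokine receptors (-2.07, -1.70 and -2.02, mean -1.93 ± 0.20, adjusted p = 0.0095), the transcription factor gene Ets2 (-1.5 ± 0.50, adjusted p = 0.033) and the kinase gene Pim1 (-1.25 ± 0.33, adjusted p = 0.03). The calls of Ets2 and Pim1 were lost on leaving out array 1 (0.11 for both) or array 2 (0.13 and 0.15) and on scaling (0.078 and 0.068), with which 1 gene of the list fell. When array 1, 2 or 3 was left out, 9, 6 and 12 of the 40 rose and 1, 1 and 6 fell. Of these 40 genes none had a mean as high as Nr4a3, and Cd5 was the only one above Nr4a1. That order too is favoured by the choice of Nr4a1 and Nr4a3 for high ratios.

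The signalling routes that lead to the 4 genes were measured here only as RNA, and the activity of their proteins was not tested. Of 27 Ras, MAP kinase and serum response factor genes, 2 rose (7.41%, against 4.13%), 0 fell (2.81% of features were lower) and 25 missed the threshold, at a median of 0.20. In the limma fit, 10 of the 27 had an unadjusted p no higher than 0.05, as did 2083 of all 8905 features. Mapk11, which encodes p38β, had 2.41, 2.90 and 2.94 (mean 2.75 ± 0.30, SD, n = 3, limma adjusted p = 0.0068). Rasa3, a GTPase-activating protein that lowers active Ras, had 1.04 ± 0.31 (adjusted p = 0.038) and was lost on leaving out any of the arrays (0.074, 0.23 and 0.072 for arrays 1, 2 and 3). The serum response factor gene Srf (0.51 ± 0.31, adjusted p = 0.17) and its partners Elk1 (-0.30 ± 0.35, adjusted p = 0.39) and Elk4 (0.09 ± 0.10, adjusted p = 0.71) did not pass, although a dye term in the fit brought Srf to 0.045.

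Of 22 calcineurin, NFAT, MEF2 and class IIa histone deacetylase genes, 1 rose (4.55%, against 4.13% of features), 2 fell (9.09%, against 2.81%) while 19 missed the threshold, at a median of 0.05. The NFAT genes Nfatc1 and Nfatc3 moved in opposite directions. Nfatc1 rose (1.34, 1.62 and 1.74, mean 1.57 ± 0.21, SD, n = 3, limma adjusted p = 0.014) and Nfatc3 fell (-1.71, -1.62 and -1.27, mean -1.53 ± 0.23, adjusted p = 0.015). The calcium channel gene Itpr2 fell (-0.87 ± 0.28, adjusted p = 0.04962). Leaving out array 2 gave adjusted p-values of 0.062 for Nfatc1, 0.067 for Nfatc3 and 0.34 for Itpr2, leaving out array 1 gave 0.056 for Nfatc3 and 0.11 for Itpr2, and Itpr2 was lost on leaving out array 3 (0.084) and in the fit with a dye term (0.059) as well. Mef2a (-0.26 ± 0.21, adjusted p = 0.35), which controls Nr4a1 transcription in T cells with its relatives, and Hdac7 (-0.44 ± 0.32, adjusted p = 0.22), a deacetylase that holds Nr4a1 off in resting thymocytes, did not pass.

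Among Nr4a partners and genes tied to deletion, regulatory fate or chronic stimulation, 4 of 16 measured genes rose (25.0%, against 4.13% of features), 1 fell (6.25%, against 2.81%) while 11 missed the threshold, at a median of 0.38. Tnfrsf9, the costimulatory receptor 4-1BB, had 2.11, 3.16 and 3.27 (mean 2.85 ± 0.64, SD, n = 3, limma adjusted p = 0.014). Tox, a nuclear factor of thymic selection, had 2.63, 2.82 and 2.50 (2.65 ± 0.16, adjusted p = 0.0051). Ndrg1 (1.15 ± 0.36, adjusted p = 0.037) and the ectonucleotidase gene Nt5e, which encodes CD73 (0.70 ± 0.09, adjusted p = 0.048), rose, and Runx1, a factor of double-positive thymocytes, fell (-0.78 ± 0.09, adjusted p = 0.039). None of Ndrg1, Nt5e and Runx1 passed without array 1 (adjusted p = 0.072, 0.19 and 0.21), array 2 (0.17, 0.39 and 0.27) or array 3 (0.052, 0.058 and 0.051), and Nt5e and Runx1 did not with scaling (0.061 and 0.077). Rxra and Rxrb, the receptors with which Nr4a1 and Nr4a2 form heterodimers, did not pass (0.17 ± 0.24 and -0.42 ± 0.26, adjusted p = 0.55 and 0.21). Bcl2, whose protein Nr4a1 binds outside the nucleus in dying cells, did not pass either (0.40 ± 0.38, adjusted p = 0.28).

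Macrophages and dendritic cells also express Fos and Nr4a1, and their marker genes were higher in the same RNA. Of 21 macrophage and dendritic cell markers, 15 rose (71.4%, against 4.13% of features), 0 fell (2.81% of features were lower) while 6 missed the threshold, and the median was 1.67, with 1.66, 1.70 and 1.68 on the arrays. Ccl22 (3.07 ± 0.37, SD, n = 3), Ctss (2.83 ± 0.41), Lyz2 (2.51 ± 0.08), Apoe (2.46 ± 0.14), H2-Aa (2.39 ± 0.29) and H2-Eb1 (2.30 ± 0.14) led this list (limma adjusted p from 0.0051 to 0.0089). The mean ratio of Ccl22 was above that of Nab2, and those of Ctss, Lyz2, Apoe, H2-Aa and H2-Eb1 were above that of Fos and below that of Nab2. On leaving out array 1, 2 or 3, 12, 11 and 14 of these markers rose. The part of these cells in the ratios of the 4 genes, the early-response genes and the other lists was not tested. Of 10 granulocyte markers 1 fell (10%, against 2.81% of features) and 0 rose (4.13% of features were higher), at a median of -0.68. The marker that fell was S100a8 (-0.86 ± 0.27, adjusted p = 0.049), lost without each array in turn and with scaling (adjusted p from 0.052 to 0.35). An unadjusted limma p no higher than 0.05 was reached by 8 of the 10 and by 2083 of all 8905 features, and 2 of the 10 had a mean above 0. The lower means of S100a9 (-1.98 ± 1.17, adjusted p = 0.079) and Ngp (-1.63 ± 1.07, adjusted p = 0.1) did not pass. On leaving out array 3, 4 granulocyte markers fell. Of 9 B cell, 6 erythroid and 10 thymic stromal markers 0 passed (4.13% of features were higher and 2.81% lower). Of them 3, 2 and 2 had an unadjusted limma p no higher than 0.05, as did 2083 of all 8905 features. The medians were 0.31, 0.06 and -0.05, and Cd79a was at 1.40 ± 0.70 (adjusted p = 0.062). With a dye term in the fit 5 granulocyte markers fell, as did the epithelial gene Epcam (0.035), the collagen gene Col1a2 (0.049) and the erythropoietin receptor gene Epor (0.038), and Epcam fell on leaving out array 3 as well (0.029). Of 9 thymocyte markers 1, Rag1, fell (11.1%, against 2.81% of features) and 0 rose (4.13% of features were higher). The median was -0.29, and 2 fell on leaving out array 3. As Rag1 was part of the basis for the direction of the ratios, its fall is not a separate result.

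Fos and Nr4a1 are also known to respond to cell handling, and only the CD69hi cells had been purified. Of 19 handling, heat-shock and stress genes 0 passed, which is near the shares over all features (4.13% higher and 2.81% lower). An unadjusted limma p no higher than 0.05 was reached by 5 of the 19 and by 2083 of all 8905 features. The median was 0.06, against 0.012 over all features. The chaperone gene Hsp90aa1 (-0.79 ± 0.40, SD, n = 3, limma adjusted p = 0.091) and the metallothionein gene Mt1 (0.54 ± 0.06, adjusted p = 0.079) had the largest moderated t, and Hsp90aa1 passed on leaving out array 3 (0.039) and in the fit with a dye term (0.045). The heat-inducible chaperone gene Hspa1a had 0.41, 2.85 and 2.47 (mean 1.91 ± 1.31, adjusted p = 0.11), low on array 1 and high on the other arrays, and passed on leaving out array 1 (0.018). Immediate-early genes of the wider early response were counted in their own list and not in this one. The part of handling in the ratios of the 4 genes was not tested.

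**Figure D5:**
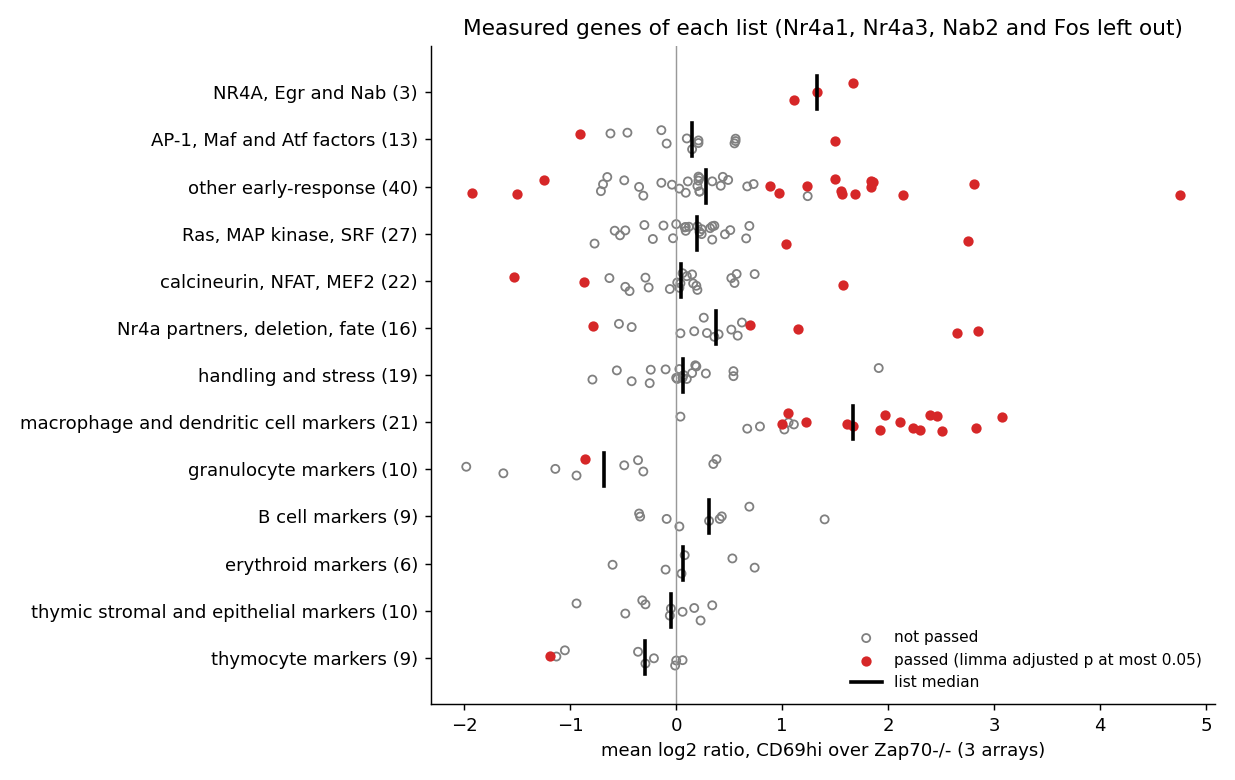
Mean log2 ratio of CD69hi over Zap70-/- RNA (horizontal axis) of each measured gene in the 13 lists (rows, with the number of genes), filled where the gene passed and open where it did not, with the median of each list as a bar. The macrophage and dendritic cell markers have a median of 1.67 and the other early-response genes one of 0.28, with Cd5 at 4.75.

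The genes whose ratios were most like those of each gene were found by Euclidean distance over the 3 arrays. Socs4, of the family of cytokine signalling inhibitors, was nearest to Nr4a1 (distance 0.31, with 3.58, 3.52 and 3.97), followed by Ms4a4b (0.73) and the tetraspanin gene Cd53 (1.09). Nr4a3 had no gene within a distance of 0.5, and its nearest were Cd5 (2.76), Ms4a4b (3.91) and Nr4a1 (3.91). Nearest to Nab2 were Ccl22 (0.25), Nnmt (0.41) and Id2 (0.46). Fos had 16 genes within 0.5, with Cd44, an adhesion receptor (0.12), the protease gene Ctsh (0.19) and the MHC class II gene H2-Eb1 (0.27) the nearest. With the arrays scaled alike, H2-Eb1 was not among the 3 nearest to Fos, and the others stayed among the 3 nearest of their gene. With 3 arrays many genes lie near any one pattern, and nearness here is a description.

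Within 100 kb of the 4 genes 8 other genes were measured, with mean log2 ratios from -0.23 to 0.65, and 0 passed (limma adjusted p from 0.053 to 0.88, a share near the 4.13% of features called higher and 2.81% called lower). Stat6, whose annotated span overlaps that of Nab2, had log2 ratios of 0.10, 0.24 and 0.34 (mean 0.23 ± 0.12, SD, n = 3, adjusted p = 0.37), against 2.51 and above for Nab2. Atg101, at a gap of 9506 bases from Nr4a1, had -0.15 ± 0.40 (adjusted p = 0.70), Stx17, 38459 bases from Nr4a3, had 0.14 ± 0.23 (adjusted p = 0.62), and Tmed10, 99173 bases from Fos, had 0.65 ± 0.05 (adjusted p = 0.053).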

How the data were processed

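The authors deposited 1 log ratio per probe for each of 3 arrays, taken here as log2. No source used here gives the log base, direction, background correction or normalization, which are therefore not stated, and with a natural logarithm the fold values would be larger. The deposited values were centred (medians -0.004, -0.005 and -0.002) and none was missing. The platform annotation names 1 gene symbol for 7486 of 9596 probes, several for 483 and none for 1627. Averaging the 1-symbol probes of each symbol and keeping all others single gave 8905 features. Values of arrays 1 and 2 were multiplied by -1. Unturned, array 3 correlated across probes with array 1 at r = -0.25 and with array 2 at r = -0.40, and arrays 1 and 2 at r = 0.61.

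All features were fitted with limma 3.58.1 (R 4.3.3, lmFit and eBayes, 1 coefficient, 2 residual and 2.75 prior degrees of freedom), with Benjamini-Hochberg adjustment over 8905 features and a threshold of 0.05, and the fit was tested on simulated data. The words rose and fell mark genes past it. The 4 genes were left out of every list count. The members and lists were chosen with earlier results of these data known, so a list is described by its counts and median. Named genes are the NR4A, Egr and Nab genes, in each other list up to 6 passing genes with the largest ratios or 2 with the largest moderated t, and the 3 nearest genes. Rag1 and Dntt are named for the direction. Outside this rule, and after their values were seen, Fosl1, Fosl2, Junb, Jund, Dusp4, Dusp5, Dusp6, Dusp10, Ets2, Pim1, Srf, Elk1, Elk4, Mef2a, Hdac7, Rxra, Rxrb, Bcl2, Hspa1a, S100a9, Ngp, Epor, Stat6, Atg101, Stx17 and Tmed10 are named. Promoter sequences and gene positions come from RefSeq (GRCm38.p6), which held all 4 genes. Alternatives left out each array, scaled or median-centred the arrays, added a dye term, used robust shrinkage, kept each probe alone, tested 1-symbol features only, or left array 3 unturned (added after seeing the data). Dim spots could not be removed, as intensities were not used here, and array probes can bind transcripts of related genes.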

Additional observations from a re-analysis of the deposited data

How the results depend on the processing

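Nr4a3, Nab2 and Fos kept their mean ratio within 1 SD without each array, with scaling, with median-centring and with a dye term, and Nr4a1 did except with scaling (3.85). Without 1 array the means ran from 3.75 to 3.81 for Nr4a1, 3.80 to 5.96 for Nr4a3, 2.78 to 3.21 for Nab2 and 2.03 to 2.25 for Fos. With array 3 left unturned they were 1.22, 2.13, 0.95 and 0.81. Features higher in CD69hi RNA numbered 95 to 283 with 1 array left out, 562 with a dye term and 0 with array 3 unturned, and features lower numbered 24 to 409, 514 and 0, and 85 with scaling, beside 285 higher. Of the 121 genes of the pathway lists, 24 rose (19.8%, against 4.13% of features) and 7 fell (5.79%, against 2.81%). When 1 array was left out 9 to 20 rose and 1 to 9 fell, with scaling 3 fell, and with array 3 unturned 0 passed each way. A fit on 2 arrays has fewer residual degrees of freedom. The rule named 38 genes of the lists, of which 29 passed. Nearest genes outside the lists were not counted. Of the 29, 12, 14 and 7 were lost without arrays 1, 2 and 3, 6 with scaling, 2 with a dye term and all 29 with array 3 unturned. Of the others, 2 passed without array 3 and 3 with a dye term. Each ratio is itself a paired difference within 1 array. Signal over background was not available here as intensities, so the imprecision of dim spots is not known.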
